A study of Mus musculus with 11 samples.

Results

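The regions described here were 840 stretches of the mouse genome, each a tile of 2 kb, whose signal of 5-hydroxymethylcytosine (5hmC) at day 2 of differentiation was at least 4 times lower in cells of the wild-type line DNMT_WT than in cells of the wild-type line TET_WT, as the ratio of geometric means. They were chosen from 1362779 tiles by 3 conditions on the deposited log2 RPKM values (reads in a tile, divided by its length and by the size of the library, on a log2 scale). A tile had to lie on an autosome other than chromosomes 6 and 14 and outside 6 Mb of distal chromosome 4, which left 1091060 tiles. It had to stand at or above 0 in each TET_WT day 2 library, which left 251262 tiles, called candidates below. Its TET_WT day 2 mean had to exceed the DNMT_WT day 2 mean by 2 or more on the log2 scale, which left the 840, or 0.334% of the candidates. The day 2 values of both lines therefore chose these tiles and are given as descriptions only, while the TET_WT values of days 0 and 1 had no part in the choice.

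The study converted mouse embryonic stem (ES) cells to epiblast-like cells (EpiLC), the in vitro counterpart of the epiblast shortly after implantation, and captured DNA fragments carrying 5hmC with the HMCP kit. TET_WT is the wild-type parent of a line that lacks Tet1, Tet2 and Tet3. It was sampled as ES cells kept in 2i/Lif (day 0, 3 libraries), as EpiLC at day 1 (2 libraries, replicates 2 and 3) and as EpiLC at day 2 (3 libraries). DNMT_WT is the wild-type parent of a line that lacks Dnmt1, Dnmt3a and Dnmt3b, and it was sampled as EpiLC at day 2 (3 libraries). Neither line carries a knockout, the knockout lines were not analysed here, and the labels give no strain, sex or clone for either parent. DNMT_WT at days 0 and 1 was not analysed here, so the lines can be set side by side at day 2 alone. The labels do not say whether replicates were separate cultures, so the p-values below measure only the spread between these libraries.

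5hmC is made by the TET enzymes, which oxidise 5-methylcytosine, the mark that the DNMT enzymes place mostly on cytosines followed by guanine (CG). It is common in gene bodies and at enhancers, and in ES cells the TET and DNMT enzymes act against each other while cells leave naive pluripotency. A captured library counts fragments that were tagged, pulled down and aligned to the genome. No library of uncaptured DNA was analysed here, so less 5hmC, fewer copies of the DNA and reads that fail to align cannot be told apart in a tile with a low value.

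Reads per library, recovered from the deposited values, numbered 7342015 in day 1 replicate 2 and between 16468363 and 51604034 in the other 10 libraries. The chosen tiles were well filled in TET_WT: the lowest held 25, 18 and 24 reads in day 2 replicates 1, 2 and 3, and the medians were 43, 30 and 41 reads. In DNMT_WT, whose replicates 1 and 3 were sequenced more deeply than any TET_WT day 2 library, the medians were 11, 4 and 7 reads. Day 0 replicate 2 stood apart from its group, and results on day 0 are given with and without it where it matters. Read counts measure the capture and intervals on them cover counting error only.

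Of the 840 tiles, 9 (1.07%) held the start of a protein-coding gene, against 1.82% of candidates. The table of starts covered 17274 of 21631 such genes, and a limit of these shares is given with the annotation below. Of the 9, 4 are shown to let a reader see what kind of start the tiles hold. In each, the sequence before the start lies wholly inside a chosen tile and outside any protein-coding gene; the predicted genes Gm12569 and Gm9573 also met this and are not printed. Printed are the 250 bases before the start, 5′ to 3′ on the strand of the gene, from RefSeq on GRCm38.p6, with each CG in capitals, since CG is where most 5hmC forms. For 1600014C10Rik, which has 2 annotated starts in the tile, the first is used. The tile value does not say where within 2 kb the reads fell.
1600014C10Rik, chr7:38182967-38183216, plus strand: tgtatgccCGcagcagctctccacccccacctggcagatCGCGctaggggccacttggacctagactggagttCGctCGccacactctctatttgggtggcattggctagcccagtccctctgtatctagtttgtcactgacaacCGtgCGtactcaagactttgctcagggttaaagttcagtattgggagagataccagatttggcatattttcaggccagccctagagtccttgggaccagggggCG
Alyref2, chr1:171503228-171503477, plus strand: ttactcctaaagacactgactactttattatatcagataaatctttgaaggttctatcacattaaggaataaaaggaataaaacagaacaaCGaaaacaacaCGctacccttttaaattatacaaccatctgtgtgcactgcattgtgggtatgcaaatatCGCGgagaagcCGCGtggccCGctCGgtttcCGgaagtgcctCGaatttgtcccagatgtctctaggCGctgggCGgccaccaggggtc
Cyb5b, chr8:107150411-107150660, plus strand: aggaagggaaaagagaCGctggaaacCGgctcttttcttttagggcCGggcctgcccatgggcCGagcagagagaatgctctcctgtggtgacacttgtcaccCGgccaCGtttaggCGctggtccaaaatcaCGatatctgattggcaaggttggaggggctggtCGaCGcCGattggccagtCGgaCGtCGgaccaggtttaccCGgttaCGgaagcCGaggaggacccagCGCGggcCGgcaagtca
Dpt, chr1:164796413-164796662, plus strand: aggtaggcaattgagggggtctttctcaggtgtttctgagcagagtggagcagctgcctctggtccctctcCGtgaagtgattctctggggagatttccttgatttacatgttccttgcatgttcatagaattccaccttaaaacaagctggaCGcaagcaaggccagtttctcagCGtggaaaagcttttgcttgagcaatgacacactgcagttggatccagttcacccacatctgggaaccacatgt

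The 4 differ widely in CG, which numbered 20 before Cyb5b, 12 before Alyref2, 8 before 1600014C10Rik and 3 before Dpt, against a median of 10 over 21045 such windows of protein-coding genes. Chosen tiles thus held starts both rich and poor in CG. At 1600014C10Rik, an uncharacterised gene on chromosome 7 (38183217 to 38197568), the tile from 38182001 to 38184000 held 452, 369 and 456 reads in the TET_WT day 2 libraries and 24, 12 and 13 in DNMT_WT. The TET_WT reads at day 0 were 425, 265 and 327, and those at day 1 were 109 and 321. All 8 TET_WT libraries stood above all 3 DNMT_WT libraries, and at 4.30 log2 RPKM at day 2 this was the tile with the highest TET_WT day 2 mean of the 840. The same gene held the next tile (38184001 to 38186000, 3.24 in TET_WT and 0.53 in DNMT_WT at day 2) and another from 38190001 to 38192000 (3.50 and 1.33). A long noncoding RNA gene, D530033B14Rik, also overlaps the tile with the start.

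At Cyb5b, which encodes a cytochrome b5 of the outer mitochondrial membrane, the tile held 68, 36 and 56 reads in TET_WT day 2 and 24, 3 and 11 in DNMT_WT. At Alyref2, a paralog of an mRNA export factor, the numbers were 43, 28 and 36 against 13, 4 and 3. At Dpt, which encodes the matrix protein dermatopontin, they were 44, 33 and 56 against 21, 8 and 6. DNMT_WT reads were therefore fewer but present at these starts, unlike in the emptiest tiles described further on. Traip, which encodes an E3 ubiquitin ligase of DNA replication, had the start tile with the second highest TET_WT day 2 mean (chromosome 9, 107950001 to 107952000), with 3.40 log2 RPKM in TET_WT and 1.13 in DNMT_WT at day 2.

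The chosen tiles had nearly the same median signal at all 3 days in TET_WT. Their median over tiles was 0.85 log2 RPKM at day 0, 0.88 at day 1 and 0.80 at day 2 in TET_WT, against -1.87 in DNMT_WT at day 2. By library, the median ran from 0.80 to 1.02 at day 0, stood at 0.92 and 0.89 at day 1, ran from 0.78 to 0.83 at day 2 in TET_WT, and from -1.87 to -1.70 in DNMT_WT. The 8 TET_WT libraries thus lay close together and the 3 DNMT_WT libraries lay apart from them. The choice of tiles set the low DNMT_WT values, so the gap between DNMT_WT and any TET_WT day follows at least in part from it. The TET_WT values of days 0 and 1 had no part in the choice. Candidates as a whole had medians from 1.28 to 1.30 in the DNMT_WT libraries, so the low values belonged to the chosen tiles and not to the libraries.

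**Figure D1:**
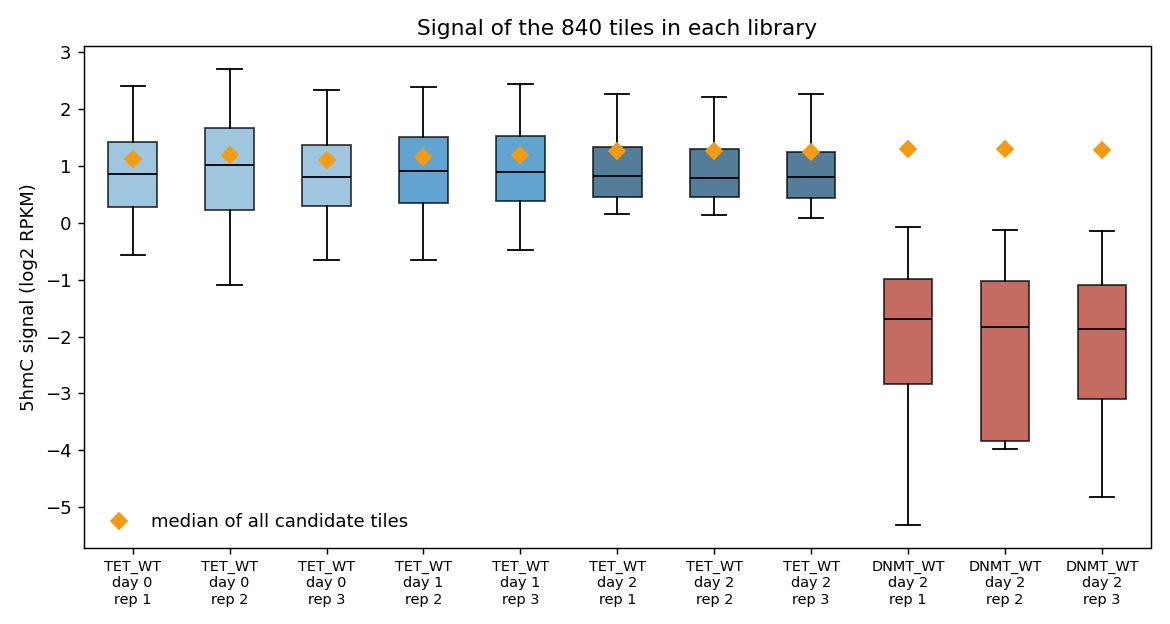
Signal of the 840 chosen tiles (log2 RPKM, y axis) in each of the 11 libraries (x axis). Boxes span the quartiles with the median as a line, whiskers reach the 5th and 95th percentiles of tiles, and diamonds give the median of all 251262 candidates. The 8 TET_WT boxes have medians from 0.78 to 1.02, and the 3 DNMT_WT boxes lie below 0 although the diamonds stay level.

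Tile by tile, the day 0 mean differed from the TET_WT day 2 mean by a median of -0.02 (quartiles -0.49 and 0.38), and the day 1 mean by 0.00 at the median (quartiles -0.37 and 0.38). Without day 0 replicate 2 the first median was -0.05. In 734 tiles (87.4%) the day 0 mean lay within 1 log2 unit of the TET_WT day 2 mean, a share close to the 84.4% of all candidates. In 31 tiles (3.69%, against 2.31% of candidates) the day 0 mean was 1 or more above the day 2 mean, and in 75 (8.93%, against 13.3%) it was 1 or more below. All 3 day 0 libraries stood at or above 0 in 619 tiles (73.7%), against 78.5% of candidates, and both day 1 libraries in 638 (76%), against 82.2%. Most of the chosen tiles thus had at day 0 and day 1 a level near that of day 2, in shares close to those of candidates in general.

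Set between the day 2 means of the lines, 800 of the 840 tiles (95.2%) were nearer to TET_WT than to DNMT_WT at day 0, and 806 (96%) at day 1. At both days 781 were nearer to TET_WT and 15 were nearer to DNMT_WT. The same counts over all candidates were 41.9% at day 0 and 43.7% at day 1, but there the 2 means mostly coincide, at a median difference of 0.01, so these shares are a background and not a match. In 752 tiles (89.5%) all 5 libraries of days 0 and 1 stood above all 3 DNMT_WT libraries, against 13.3% of candidates, and in all 840 the TET_WT day 2 libraries did, against 16.8%. The DNMT_WT values in those counts were low by the choice of tiles, so nothing is read from them.

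**Figure D2:**
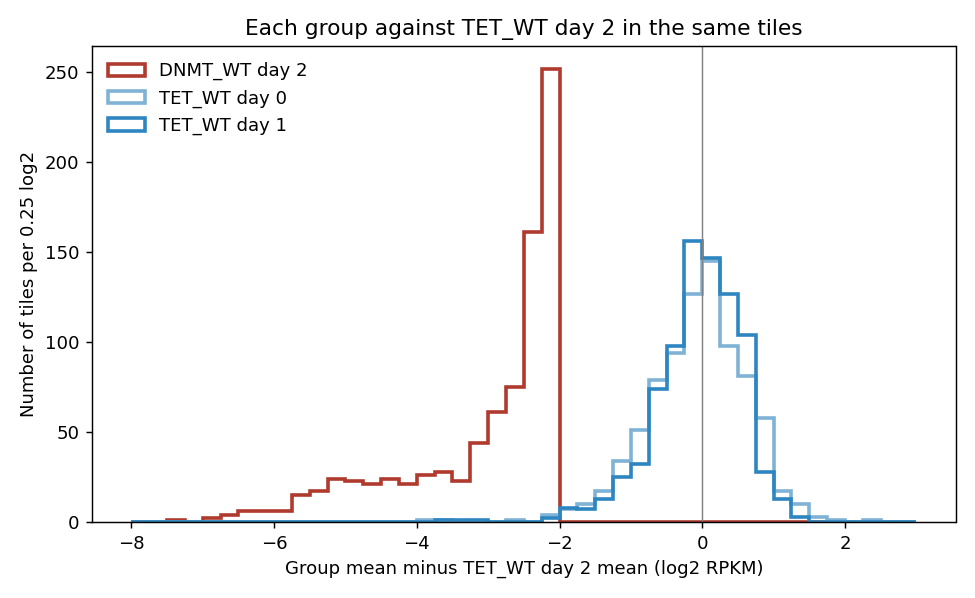
Number of chosen tiles (y axis, per 0.25 log2 unit) by the difference of a group mean from the TET_WT day 2 mean (x axis, log2 RPKM) for DNMT_WT day 2, TET_WT day 0 and TET_WT day 1. The day 0 and day 1 outlines centre on 0, with medians of -0.02 and 0.00, and the DNMT_WT outline ends at -2 because of the rule, with its far end at the largest difference, 7.25.

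Day 1 was tested against day 0 in TET_WT, the only comparison that the choice of tiles left untouched. Limma, a linear model that shares variance estimates between tiles, was fitted to 1183888 tiles in all 11 libraries. Tiles are called where the p-value, adjusted over all tiles by Benjamini and Hochberg, is below 0.05. All 840 chosen tiles were among those tested. The median difference of day 1 minus day 0 was 0.05 over the chosen tiles (quartiles -0.33 and 0.38, range -1.71 to 1.96), against 0.189 over all tiles tested. Those include many tiles of low signal. Over tiles at or above the median signal it was 0.0174, against 0.0456 in the 838 chosen tiles among them. The 0.189 is therefore no match in signal, and no smaller rise is read from it. Of the 840, 5 were called, 1 higher and 4 lower, where the background was 1.01% of all tiles, 0.601% higher and 0.409% lower. With voom on recovered reads 8 were called, 5 higher and 3 lower, against a background of 0.308%, and 3 of the 5 limma calls were among them. At an unadjusted p under 0.05 there were 84 chosen tiles, or 10%, against 11.8% of all tiles. These counts are too small to be read as a result about the chosen tiles. In the line comparison at day 2 limma called all 840 higher in TET_WT, against 2.24% of all tiles, but the tiles were chosen on that contrast.

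The tile with the smallest adjusted p lay in Eva1c on chromosome 16 (90876001 to 90878000). Its signal at day 0 was 3.94, 4.44 and 3.74 log2 RPKM, that at day 1 was 2.80 and 2.97, and that at TET_WT day 2 was 1.83, 1.69 and 1.63. The groups did not overlap and lay in the order of time. It fell by 1.16 from day 0 to day 1 (SE 0.23, limma adjusted p = 0.00123). DNMT_WT had 0.09, -0.66 and -0.59 at day 2, below every TET_WT library.

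About 160 kb away, a tile in the noncoding RNA gene Gm46569, close to the centromere protein gene Mis18a (chromosome 16, 90716001 to 90718000), had 3.97, 4.82 and 4.25 at day 0 and 3.47 and 3.37 at day 1. It fell by 0.93 (SE 0.20, limma adjusted p = 0.00397), with 2.76 ± 0.22 at TET_WT day 2 and -0.03 ± 0.53 in DNMT_WT (SD, n = 3). The tile at the start of 1600014C10Rik, described above, was the called tile that rose, by 0.75 (SE 0.19, limma adjusted p = 0.0244). It reached 3.93 at day 1 from 3.19 ± 0.22 at day 0 (SD, n = 3). The other calls were in Myom1, which encodes myomesin of the muscle M-band (chromosome 17, 71096001 to 71098000; -1.45, SE 0.40, limma adjusted p = 0.0388), and in the noncoding RNA gene Gm31259 near Ripply3 (chromosome 16, 94338001 to 94340000; -1.50, SE 0.42, limma adjusted p = 0.0494). In both, TET_WT day 2 lay between day 1 and day 0, at 0.75 and 0.80 log2 RPKM.

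Most of these calls were lost when single libraries were left out. Without the shallow day 1 replicate 2 none of the 840 was called (53 at an unadjusted p under 0.05), and without day 1 replicate 3 the count was 10. Without day 1 replicate 2 the Eva1c tile had an adjusted p of 0.0711, the Mis18a tile 0.0597 and the 1600014C10Rik tile 0.459. The Mis18a tile also missed the threshold without day 0 replicate 2 (0.0909) and the 1600014C10Rik tile without day 0 replicate 3 (0.124). The Myom1 tile missed it without any of the day 0 libraries (0.0624 to 0.114) or day 1 replicate 2 (0.382), and the Gm31259 tile without any of the 5 libraries (0.0702 to 0.226). The differences themselves changed less: without day 1 replicate 2 they were -1.07 in the Eva1c tile, -0.98 in the Mis18a tile, -1.52 in the Gm31259 tile, -1.17 in the Myom1 tile and 0.57 in the 1600014C10Rik tile. The count of calls was 3 without day 0 replicate 1 or replicate 2.

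The line difference itself ranged from 2.00 to 7.25, with a median of 2.52, so that the median DNMT_WT signal was 17.4% of that in TET_WT. It lay under 2.5 in 415 tiles, from 2.5 to under 3 in 135, from 3 to under 4 in 121, and at 4 or more in 169. Many tiles therefore stood near the threshold and a long tail stood far from it. The nearest inside were in Ttc39c on chromosome 18 (12592001 to 12594000), in Cobll1 on chromosome 2 (65126001 to 65128000) and outside genes on chromosome 16 (97736001 to 97738000), each at 2.001. The nearest outside were in Ccdc7a (chromosome 8, 129030001 to 129032000, 2.000), on chromosome 18 (83666001 to 83668000, 1.998) and in Steap4 (chromosome 5, 7976001 to 7978000, 1.996). Their day 0 means, 1.43, 1.27 and 1.10, were higher than those of the tiles just inside, at 0.42, 0.86 and 0.79. So were their TET_WT day 2 means (1.89, 1.52 and 1.27 against 0.65, 0.61 and 0.25). Their DNMT_WT means were higher too (-0.11, -0.48 and -0.72 against -1.35, -1.39 and -1.75), so the gap was not particular to day 0.

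In DNMT_WT the SD between replicates was larger in these tiles than over candidates. The median SD over its 3 libraries was 0.73, against 0.24 over candidates, while in TET_WT day 2 it was 0.20 against 0.19. Low read numbers moved with this: 122 of the chosen tiles had no read in DNMT_WT replicate 2, the shallowest, 89 had none in replicate 3 and 61 had none in replicate 1. A tile without a read in any of the 3 still had an SD of 0.67, because empty tiles held -5.31, -3.98 and -4.83 in replicates 1, 2 and 3. There the SD reflects depth and not a difference in signal. The part of depth in the rest of the scatter was not tested. Over the 3 libraries together 29 tiles had 0 reads, 52 had 1 to 3, 250 had 4 to 20 and 509 had more than 20. All 81 candidates with 3 or fewer DNMT_WT reads were among the chosen tiles. The rule fixes this, as so few reads put the DNMT_WT mean more than 2 below 0.

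The 29 tiles without a DNMT_WT read held from 77 to 385 reads in TET_WT day 2, with a median of 137. Set against the 3 reads over the group that a count of 0 allows, TET_WT was at least 29.7-fold to at least 148-fold higher in them, scaled to depth. The median difference of the 840 stayed at 2.52 with these tiles at their bound. Among the 81 tiles with 3 or fewer DNMT_WT reads, 80 were nearer to TET_WT at day 0, with a median change from day 0 to TET_WT day 2 of 0.05 log2 units, day 0 being higher. Of the 509 with more than 20 reads, 477 were nearer to TET_WT at day 0. As the day 2 means chose the tiles, these counts are descriptions.

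The tile with the largest difference lay outside annotated genes on chromosome 17 (6840001 to 6842000), 57.2 kb from Ezr, which encodes ezrin, a linker of membrane and actin. It held 157, 92 and 136 reads in TET_WT day 2 and 0 in each DNMT_WT library, at least 148-fold higher. At day 0 it held 313, 182 and 263 reads and at day 1 34 and 128. In log2 RPKM the means were 2.76 at day 0, 2.43 at day 1 and 2.54 at day 2 in TET_WT, close to each other beside the -4.70 of DNMT_WT. The next tile on the chromosome was also chosen, with a mean of 2.42 at TET_WT day 2 and -4.29 in DNMT_WT over both.

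On chromosome 13, 60.8 kb from Edil3, a tile (89384001 to 89386000) held 113, 74 and 125 reads against 0, 1 and 1, a depth-scaled ratio of 180 with a 95% exact interval from 49.5 to 1496. On chromosome 7, 16.9 kb from Aurkc, which encodes a meiotic aurora kinase, another (7020001 to 7022000) held 111, 90 and 91 reads against 1, 0 and 0, a ratio of 338 (60.1 to 13380). These intervals are wide because so few DNMT_WT reads stand behind them. Of the 8 tiles with the largest differences it had the widest gap between days 0 and 2 in TET_WT, with means of 3.57 at day 0, 2.72 at day 1 and 2.17 at day 2. A pair of neighbouring tiles on chromosome 10 (93612001 to 93616000), 22.3 kb from Snrpf, a core protein of the splicing machinery, held 0 DNMT_WT reads and 499 TET_WT day 2 reads. The other 3 of the 8 lay on chromosome 18 between 9248001 and 9682000, each with 0 DNMT_WT reads and at least 82.5-fold, 92.9-fold and 93.3-fold higher in TET_WT.

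**Figure D3:**
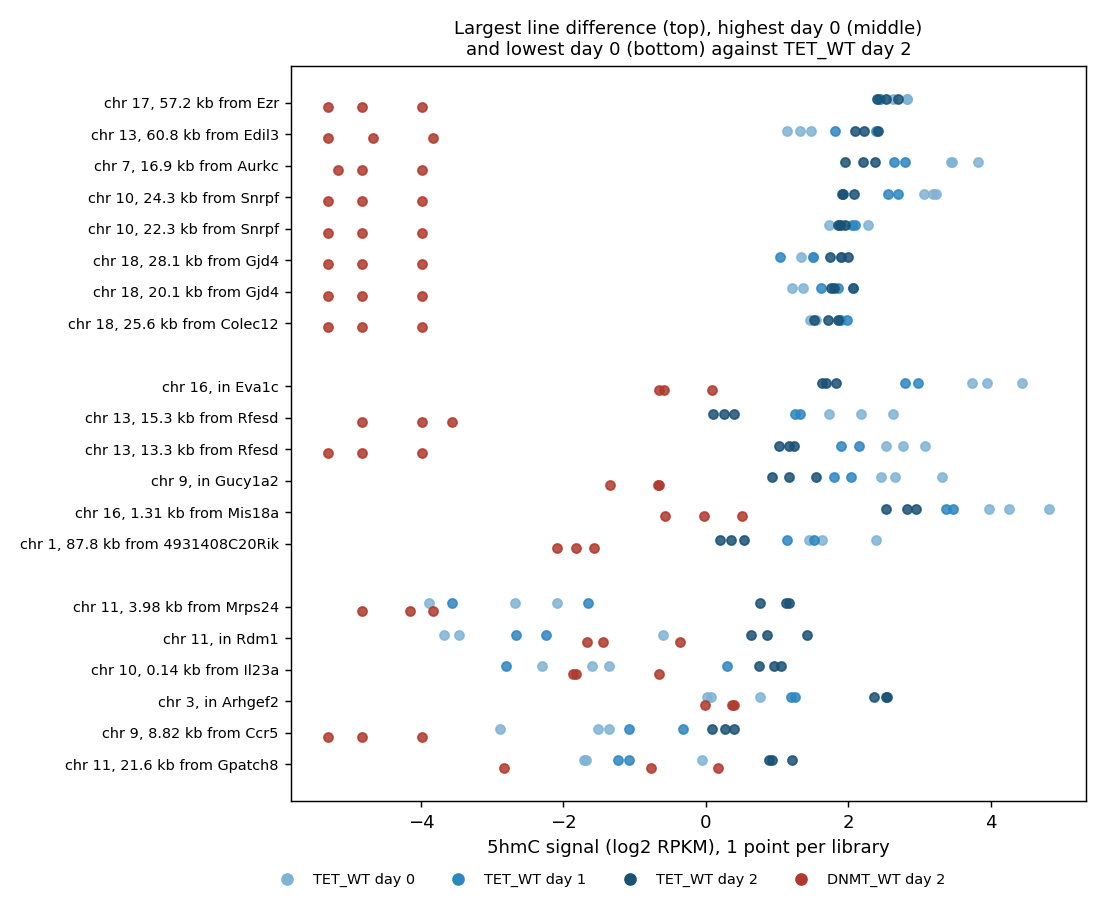
Signal (log2 RPKM, x axis) of 20 chosen tiles in each library, 1 point per library, for the 8 largest differences between lines, the 6 highest and the 6 lowest day 0 means relative to TET_WT day 2. In the upper group all TET_WT points lie above 1 and all DNMT_WT points below -3, and in the lower group the day 0 points lie below TET_WT day 2 in every tile.

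Some tiles had different levels at the 3 days in TET_WT. The 6 with the highest day 0 signal relative to day 2 included the Eva1c and Mis18a tiles given above, a pair of adjacent tiles on chromosome 13 near Rfesd, and a tile in Gucy1a2, which encodes a subunit of soluble guanylate cyclase. In the Rfesd pair the tile from 76032001 to 76034000 had means of 2.79 at day 0, 2.02 at day 1 and 1.14 at day 2, with 302, 218 and 246, then 28 and 88, then 49, 41 and 53 reads, and 0 reads in DNMT_WT. The Gucy1a2 tile (chromosome 9, 3886001 to 3888000) had means of 2.80, 1.92 and 1.22 in that order and -0.89 in DNMT_WT. These tiles had means at day 1 between those of days 0 and 2. Day 2 had a part in picking them, so the order is a description.

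The 40 tiles nearer to DNMT_WT at day 0 were the reverse, and by that definition had less signal at day 0 than at day 2 in TET_WT. Of these, 25 were nearer to TET_WT at day 1. The lowest day 0 signal relative to day 2 was on chromosome 11 (5698001 to 5700000), 3.98 kb from Mrps24, a mitochondrial ribosomal protein gene, where reads numbered 3, 4 and 10 at day 0, 2 and 2 at day 1, 54, 38 and 40 at TET_WT day 2 and 2, 1 and 0 in DNMT_WT. Only the TET_WT day 2 libraries held more than 10 reads in it. In Rdm1 (chromosome 11, 101626001 to 101628000), which encodes a RAD52 motif protein, day 0 had 4, 2 and 28 reads, day 1 had 1 and 5, TET_WT day 2 had 44, 27 and 63, and DNMT_WT had 13, 11 and 8. In that tile day 0 replicate 3 stood well above the other day 0 libraries.

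In Arhgef2 (chromosome 3, 88622001 to 88624000), the signal was higher throughout, at 0.28 ± 0.41 at day 0, 1.22 at day 1, 2.47 ± 0.10 at TET_WT day 2 and 0.25 ± 0.23 in DNMT_WT (SD, n = 3). Its day 1 libraries lay between the others and the rise from day 0 to day 1 did not pass (0.94, SE 0.31, limma adjusted p = 0.12). A tile 0.14 kb from Il23a, which encodes a subunit of interleukin-23 (chromosome 10, 128294001 to 128296000), had -1.76 at day 0, -1.26 at day 1, 0.92 at TET_WT day 2 and -1.45 in DNMT_WT. The 2 day 1 libraries of that tile disagreed, with 0 and 29 reads.

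The chosen tiles were mostly single. They formed 760 separate groups of adjacent tiles, of which 683 were single tiles, 74 were pairs and 3 were runs of 3, so 157 tiles (18.7%) had a chosen neighbour. Of the 3 runs of 3, the one with the largest difference lay on chromosome 18 (9252001 to 9258000), outside genes, at 0.90 log2 RPKM in TET_WT day 2 and -4.70 in DNMT_WT. The others lay in Arhgap12 (chromosome 18, 6042001 to 6048000, 1.19 and -2.74), and in Camk2b, the beta subunit of the calcium/calmodulin-dependent kinase II (chromosome 11, 6006001 to 6012000, 3.03 and -0.38). Camk2b had the highest signal of the 3 at day 0, at 3.41, with 3.18 at day 1. Among the pairs, those near Ezr and Snrpf had the largest differences, 6.72 and 6.64, above the 5.60 of the run on chromosome 18. The Snrpf pair and that run held no DNMT_WT read, and their -4.70 is the value of empty tiles. Between them the order is that of the TET_WT day 2 signal, 1.93 against 0.90.

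Beside a chosen tile the TET_WT signal was already lower 1 tile away. Averaged over the tiles at a given distance that were not chosen themselves, the TET_WT day 2 signal was -1.47 and -1.58 log2 RPKM at 2 kb to the left and right, against 0.95 in the chosen tiles. At the same places DNMT_WT had -2.34 and -2.43, so a line difference of 0.86 and 0.85 remained. At 20 kb the mean difference was 0.33 and 0.38 and the median 0.24 and 0.29, where the median over all tiles tested was 0.12. The tiles tested include chromosomes 6, 14 and X and lack the 10% of lowest signal, so the 0.12 is no match for the flanks. TET_WT at day 0 followed its day 2 profile, with -1.45 and -1.60 at 2 kb. In DNMT_WT the mean was -2.10 in the chosen tiles and -2.03 and -1.99 at 20 kb. The rule asked for high TET_WT and low DNMT_WT values at day 2, and chosen tiles were left out of the flanks, so the day 2 profiles are set by the choice and are not a result.

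**Figure D4:**
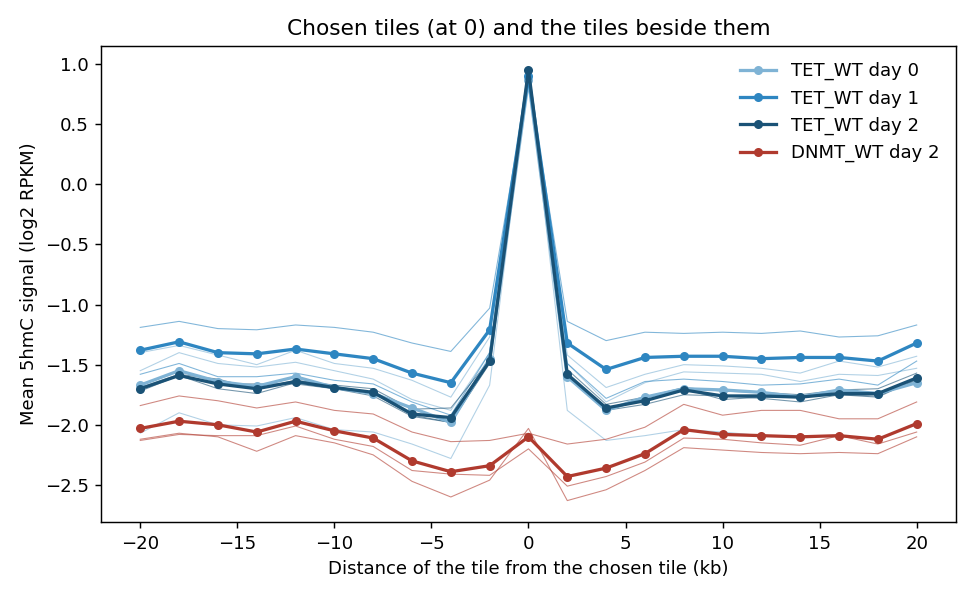
Mean signal (log2 RPKM, y axis) in the chosen tiles (distance 0) and in tiles up to 20 kb away that were not chosen (x axis, kb). Thick lines with points are group means and thin lines single libraries; the thin line on top is day 1 replicate 2, whose empty tiles hold a higher value. The 3 TET_WT lines peak near 0.9 at distance 0, and the DNMT_WT line stays between -2.43 and -1.97.

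Tiles with few DNMT_WT reads could extend beyond the chosen tile. Adjacent tiles with 3 or fewer DNMT_WT reads and at least 10 TET_WT day 2 reads formed 69 stretches around chosen tiles, 40 of them of 1 tile, 19 of 2 and 10 of 3 or more. On chromosome 18 from 9246001 to 9260000 such a stretch spanned 14 kb, held 5 chosen tiles, and had 820 reads in TET_WT day 2, 1362 at day 0, 351 at day 1 and 0 in DNMT_WT, at least 316-fold higher in TET_WT. On chromosome 13 from 67376001 to 67390000, at the zinc finger gene Zfp429, another of 14 kb had 272 TET_WT day 2 reads and 5 DNMT_WT reads, with 1 chosen tile. In Slc22a22, which encodes an organic anion transporter (chromosome 15, 57308001 to 57316000), 8 kb held 501 reads in TET_WT day 2, 1011 at day 0 and 6 in DNMT_WT. All 3 stretches held reads at day 0 as well as at day 2 in TET_WT, but at different levels. Their means at day 0 and TET_WT day 2 were 0.44 and 0.26 log2 RPKM on chromosome 18 and 0.52 and 0.51 in Slc22a22. At Zfp429 they were only -1.32 and -1.63.

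The chosen tiles were spread unevenly over the genome. Chromosome 18 held 104 of them, or 10.9 per 1000 candidates, chromosome 13 held 91 (7.11 per 1000) and chromosome 17 held 74 (6.03), against 3.34 over all 17 chromosomes kept. Chromosome 12 had the fewest, 12 tiles or 1.05 per 1000. The median difference over all candidates of a chromosome was also highest on chromosomes 13 and 18, at 0.12 and 0.11. It followed the order only in part: it was -0.05 on chromosome 17 and -0.02 on chromosome 12. Chromosome 1, next at 0.10, held 3.72 chosen tiles per 1000. At day 0, 102 of the 104 tiles on chromosome 18 were nearer to TET_WT.

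**Figure D5:**
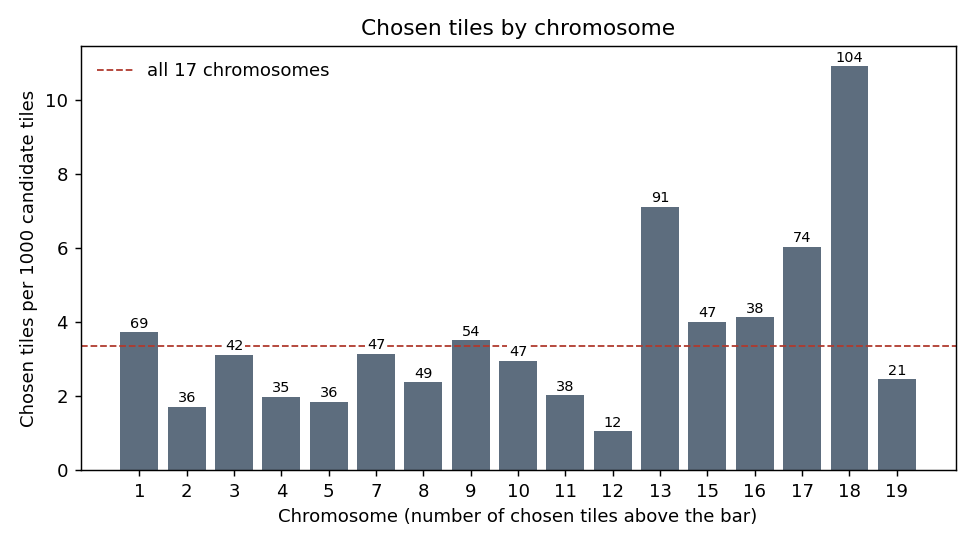
Chosen tiles per 1000 candidates (y axis) on each of the 17 chromosomes kept (x axis), with their number above each bar and the value for all 17 as a dashed line. Chromosome 18 reaches 10.9 and chromosome 12 reaches 1.05, against 3.34 in all.

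Within chromosomes they gathered further. Of 446 windows of 5 Mb with a candidate, 170 held no chosen tile and 168 held 1 or 2. In contrast, 9 windows held 10 or more, and these had 174 of the chosen tiles (20.7%) on 2.13% of the candidates. On chromosome 18 the window from 5 to 10 Mb held 35 of 301 candidates (11.6%) and that from 10 to 15 Mb held 32 of 636 (5.03%). Chromosome 13 from 75 to 80 Mb held 19 of 157 (12.1%), chromosome 15 from 40 to 45 Mb 15 of 179 (8.38%) and chromosome 17 from 70 to 75 Mb 24 of 678 (3.54%). In all 9 windows every chosen tile but 3 was nearer to TET_WT at day 0.

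In 4 of the 9 windows the tiles that were not chosen leaned the same way. The median difference of the other candidates was 0.31 and 0.40 in the windows of chromosome 18, 0.43 on chromosome 13 and 0.54 on chromosome 15, against 0.01 over all candidates. Such a lean was not particular to them. Some windows without a chosen tile had it too, as 0.59 on chromosome 15 from 0 to 5 Mb and 0.39 on chromosome 4 from 50 to 55 Mb. Others without a chosen tile lay below 0, as -0.23 on chromosome 5 from 135 to 140 Mb. On chromosome 17 it was 0.08, and in the window of chromosome 7 from 15 to 20 Mb, with 15 chosen tiles, it was -0.22. In the other 3 windows it was -0.02 (chromosome 16, 90 to 95 Mb), 0.01 (chromosome 18, 30 to 35 Mb) and 0.12 (chromosome 9, 50 to 55 Mb). On chromosome 13 from 75 to 80 Mb, 9 of the 19 chosen tiles had 3 or fewer DNMT_WT reads, and on chromosome 18 from 5 to 10 Mb 12 of 35, while none of the 24 on chromosome 17 or of the 15 on chromosome 7 did.

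Against annotation, the chosen tiles lay more often outside genes than candidates did. Of the 840, 271 (32.3%) overlapped a protein-coding gene, against 61.6% of candidates, and 368 (43.8%) overlapped any annotated gene, against 70.9%. Chosen tiles also had a lower TET_WT day 2 median than candidates, 0.80 against 1.24 log2 RPKM, and its part in these shares was not tested. Gene starts on chromosome 18 were not used here, so the count of tiles with a start leaves that chromosome out. Its tiles still count in the totals behind the shares with a start, 1.07% of chosen tiles and 1.82% of candidates. As it held 104 of the 840 and 9542 of the 251262 candidates, the shares are no match, and nothing is read from them.

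The 271 tiles fell in 206 protein-coding genes, of which 48 held at least 2 and 15 at least 3. Mctp1, which encodes a calcium-binding membrane protein with C2 domains (chromosome 13, 76382362 to 77033284), held 4 of its 8 candidates. Their means were 0.80 at day 0, 0.28 at day 1, 0.86 at TET_WT day 2 and -3.27 in DNMT_WT. One of them (76990001 to 76992000) had no DNMT_WT read against 34, 24 and 37 in TET_WT day 2. Grb14, an adaptor of the insulin receptor (chromosome 2, 64912476 to 65022766), also held 4 of 8, at 0.46 and -2.40 at day 2. Over its 4 tiles the day 0 libraries had means of 0.16, -1.20 and 0.26 in Grb14, so that day 0 was -0.26 with replicate 2 and 0.21 without it.

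Sntg1, which encodes a syntrophin of the dystrophin complex (chromosome 1, 8359739 to 9301657), held 3 of 11 candidates, at 1.01 in TET_WT and -3.59 in DNMT_WT at day 2. In Osbpl1a, an oxysterol-binding protein gene (chromosome 18, 12753898 to 12941871), 3 of 54 candidates were chosen (1.65 and -1.36), and in Tmem241 (chromosome 18, 11980119 to 12121570) 3 of 32 (1.39 and -1.76). The remaining candidates of these genes had median differences of 0.39 in Sntg1, 0.47 in Osbpl1a and 0.99 in Tmem241. By the rule, a candidate that is not chosen differs by less than 2. In Camk2b, where 3 of 32 were chosen, the others had a median of -0.08, and in 1600014C10Rik 0.25. As the rule split the candidates of each gene, these medians are descriptions and no result about the genes. In Slc22a22, where 3 of 5 were chosen, the other 2 had a median of 1.91, just under the threshold.

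In Ppp1r15b, which encodes a regulatory subunit of the phosphatase that acts on the initiation factor eIF2 alpha, a pair of tiles on chromosome 1 overlapped the lower end of the gene span (133130001 to 133134000). The tile from 133132001 held 96, 64 and 93 reads in TET_WT day 2 and 1, 2 and 3 in DNMT_WT. At day 0 it held 53, 57 and 86 reads and at day 1 6 and 26. The pair had means of 1.15 at day 0, 0.48 at day 1 and 2.22 at day 2, so it was filled at all days and highest at day 2 in TET_WT.

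None of the genes on 11 lists of developmental and methylation genes held a chosen tile. The lists covered naive pluripotency, the formative epiblast, the DNA methylation machinery, imprinted, germline, blood, neural, mesoderm, endoderm and trophectoderm genes, and markers of fibroblasts and feeder cells. They named 219 genes, of which 216 matched the annotation and 183 lay on the chromosomes kept and so could hold a chosen tile. At least 1 candidate lay in 164, with 1814 candidate tiles in all and 0 chosen, against 0.334% of all candidates. The listed genes are protein-coding, and of the 154787 candidates in any protein-coding gene 271 were chosen. As that share is smaller, nothing is read from the 0. The largest difference among the candidate tiles of the lists was 1.89, in Kcnq1, a potassium channel gene of an imprinted domain (chromosome 7, 143294001 to 143296000). That tile had 1.53 at day 0, 1.58 at day 1, 0.51 at TET_WT day 2 and -1.38 in DNMT_WT. Next were Lama1, a laminin chain gene (1.73), and Mbd2, which encodes a methyl-CpG binding protein (1.63). In the naive list the largest was 1.21, in Tfcp2l1, whose tile had means of -2.89 at day 0, 1.20 at TET_WT day 2 and -0.01 in DNMT_WT. The list medians ran from -0.41 for mesoderm to 0.09 for blood.

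In the opposite direction the same candidates held 58 tiles that were higher in DNMT_WT by 2 or more. That set had to be at or above 0 in TET_WT too, a condition that narrows it, so 840 and 58 do not measure which line has more tiles of its own.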

How the data were processed

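HMCP capture libraries of 5hmC were analysed from 11 samples in 4 groups, mapped by their titles. Per the submitters' processing notes the authors used Trim Galore 0.6.5, cutadapt 2.3, Bowtie2 2.4.1 and GRCm38; the counter of reads is not given in the sources used here. The deposited values are log2 RPKM in tiles of 2 kb, as the authors computed them. Each value lay within 0.1% of a whole number of reads, and empty tiles held the value of 0.9 reads, so reads were recovered from them. RPKM is relative to the library, so a change in total 5hmC cannot be seen.

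Tiles on chromosomes 1 to 19 and X, without the 10% lowest and 0.1% highest in mean, were fitted with limma 3.58.1 (lmFit, eBayes with a variance trend) in R 4.3.3 over 4 group means. On simulated reads of these depths limma made more false calls for day 1 against day 0 than its threshold allows and voom did not, so voom's count stands beside limma's. The simulation gave every tile and library the same spread beyond counting, whereas the spread between replicates differed between groups here. The work was also set to stop had voom failed. It therefore does not show how many of voom's calls in these data are false. Ratios used reads summed over a group. Gene spans and promoter sequences came from RefSeq on GRCm38.p6; no genome sequence was used.

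The members, lists and tests were chosen with earlier results of these data known. Tiles named singly were the 8 largest line differences, the 6 highest and 6 lowest day 0 means relative to TET_WT day 2, up to 5 called in each direction at day 1, the 5 longest runs, genes with the most tiles, the nearest to the threshold on either side, and any in a listed gene; Ppp1r15b, Traip, the genes of printed starts and the long stretches were named after their values were seen. Alternatives were other scaling, filters, variance models, values of empty tiles, equal depth, voom, a replicate block and leaving out libraries.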

Additional observations from a re-analysis of the deposited data

How the results depend on the processing

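The number of chosen tiles was 2284 at a threshold of 1.5 and 290 at 3, where tiles in runs numbered 341 and 68. It was 576 with median centring, all 576 of them among the 840, 750 with 1 read added to each tile (692 shared) and 932 with the day 2 libraries at equal depth (654 shared), and it ran from 919 to 1132 without any 1 day 2 library, so tiles near the threshold enter and leave. Tiles nearer to TET_WT ran from 777 to 803 at day 0 and from 786 to 813 at day 1 over their alternatives. The 5 calls of day 1 against day 0 became 0 with median centring, no variance trend or equal depth (64, 41 and 54 tiles at an unadjusted p under 0.05), 2 when tiles below the median signal were dropped (838 of the 840 tested), 3 with 1 read added, 8 with quantile normalization or voom and 10 in a fit of days 0 and 1 alone; without 1 library they ran from 0 to 10. Over all tiles the calls were 11956, against 2439 with median centring, 0 without a variance trend, 3256 in a fit of days 0 and 1 alone, 3647 with voom and 3900 at equal depth. The 5 called tiles kept their direction in each of these fits. With the replicate number as a block 6 tiles were called, 4 of them shared, but same-numbered libraries did not deviate together (correlations of -0.02 to 0.02), so the numbers were not taken to pair samples. The cause of these changes was not tested. Day 1 replicate 2, with a median of 12 reads in the chosen tiles, limits what day 1 can show.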

Other observations

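Of the 8 tiles that voom called between days 0 and 1, 5 had no limma call, and they are named here after their values were seen. A tile outside genes on chromosome 4 (153830001 to 153832000) rose by 0.83 (voom adjusted p = 0.00182; 0.0511 by limma), from 2.23, 2.82 and 2.41 log2 RPKM at day 0 to 3.17 and 3.27 at day 1, and it had 3.16, 3.18 and 3.13 at TET_WT day 2 against 1.38, 0.63 and 0.54 in DNMT_WT. A tile in Hnrnpm, which encodes a splicing regulator (chromosome 17, 33650001 to 33652000), rose by 0.67 (0.00631; 0.0588 by limma), and one in Zfp804a (chromosome 2, 82148001 to 82150000) rose by 1.33 (0.0436; 0.132 by limma). A tile at the pseudogene Gm6311 (chromosome 13, 75954001 to 75956000) rose by 1.70 (0.00591; 0.124 by limma). The tile near Aurkc on chromosome 7 (7020001 to 7022000), empty but for 1 read in DNMT_WT, fell by 0.90 (0.00363; 0.243 by limma).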
